A study of Mus musculus with 10 samples.

Results

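The mRNAs of 5 secreted C-type lectins of the Reg (regenerating) family, Reg1, Reg3a, Reg3b, Reg3g and Reg4, were followed in sorted stem cell populations of the mouse intestine. The members were chosen by gene symbol, with earlier results of these data known. All 5 had a row among the 30295 gene rows of the deposited tables. The active population came from mice carrying Lgr5-EGFP-IRES-CreER, in which EGFP marks cells at the bottom of the crypt that transcribe Lgr5. The reserve population came from Hopx-CreER::LSL-tdTomato mice, in which Cre switches on tdTomato for good, so that descendants of a labelled cell carry the label too. All mice were C57Bl/6, and either were under calorie restriction (CR) or ate ad libitum (AL). The groups were Lgr5 CR (n = 3), Lgr5 AL (n = 3), Hopx CR (n = 2) and Hopx AL (n = 2), with 1 library for each of 10 animals. Each of 5 isolations held 1 CR and 1 AL animal of the same reporter line, numbered 1 to 3 for Lgr5 and 4 and 5 for Hopx. The labels give no age, no length of restriction and no time between Cre induction and sorting.

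Reg proteins are small lectins released into the gut lumen. Reg3g kills Gram-positive bacteria after binding their peptidoglycan and keeps bacteria away from the mucosal surface, and Reg3b acts on Gram-negative bacteria. Enterocytes and Paneth cells make both, and their transcription depends on microbial signals, through the adaptor MyD88 and through the cytokine IL-22 acting on epithelial STAT3. Human REG3A, which shares its name with mouse Reg3a, is bactericidal. Reg1 is known from the regenerating pancreas and is also made in the gut, and Reg4 marks enteroendocrine cells and secretory cells of the colon crypt.

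In the RefSeq gene table of GRCm38.p6, Reg3b, Reg3d, Reg3a, Reg2, Reg1 and Reg3g are consecutive protein-coding genes on chromosome 6, and Reg4 lies apart on chromosome 3. The 250 bases before the annotated start are shown for the 3 Reg3 genes, whose levels varied together, and for Reg4, whose level did not follow them. They are from RefSeq (GRCm38.p6), at chr6:78370635-78370884 (plus strand), chr6:78468875-78469124 (minus strand), chr6:78380459-78380708 (plus strand) and chr3:98221906-98222155 (plus strand). Capitals mark matches to TATAAA, the TATA box, on either strand, or to TTCNNNGAA, the palindrome bound by STAT factors, which reads alike on both strands.
Reg3b: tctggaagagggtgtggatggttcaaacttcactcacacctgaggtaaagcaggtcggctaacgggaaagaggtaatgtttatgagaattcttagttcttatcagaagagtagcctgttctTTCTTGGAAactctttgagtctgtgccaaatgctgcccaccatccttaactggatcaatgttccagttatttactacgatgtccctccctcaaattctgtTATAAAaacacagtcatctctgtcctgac
Reg3g: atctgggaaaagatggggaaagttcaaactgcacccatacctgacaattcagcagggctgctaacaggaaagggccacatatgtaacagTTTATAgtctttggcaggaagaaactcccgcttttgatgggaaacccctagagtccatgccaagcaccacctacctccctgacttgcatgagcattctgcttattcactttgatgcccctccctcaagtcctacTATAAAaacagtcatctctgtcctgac
Reg3a: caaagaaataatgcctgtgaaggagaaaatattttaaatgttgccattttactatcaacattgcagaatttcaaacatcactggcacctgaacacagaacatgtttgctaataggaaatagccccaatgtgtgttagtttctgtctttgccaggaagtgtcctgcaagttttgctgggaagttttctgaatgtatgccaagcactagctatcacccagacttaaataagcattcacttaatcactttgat
Reg4: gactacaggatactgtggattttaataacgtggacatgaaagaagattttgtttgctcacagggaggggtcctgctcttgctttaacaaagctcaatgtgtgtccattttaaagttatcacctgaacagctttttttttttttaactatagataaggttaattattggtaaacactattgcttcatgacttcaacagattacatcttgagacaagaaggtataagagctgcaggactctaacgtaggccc

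Reg3b and Reg3g were the most alike of these upstream stretches, with 173 identical bases of 247 aligned (70%), and the last 20 bases before the start were the same in both. Reg3a had 68.2% identity to Reg3g and 62.9% to Reg3b, and Reg4 had 54.8% to Reg3b, 58.9% to Reg3g and 59.2% to Reg3a. Reg1 had 62.5% to Reg3a, 56.7% to Reg3b and 54.2% to Reg3g. Reg3d had 66.2% to Reg3a, 64.4% to Reg3b and 63.3% to Reg3g. Identity is over aligned bases only, and that of unrelated upstream stretches was not computed. A TATAAA match began 29 bases before the start of Reg3b, 27 bases before that of Reg3g and 30 bases before that of Reg1. Reg3g held another, on the opposite strand. Of 32851 annotated upstream windows of 250 bases, 12.4% held TATAAA and 7.02% held TTCNNNGAA. The STAT palindrome was found once in Reg3b, beginning 129 bases before the start, and once in Reg3d, beginning 238 bases before the start. A match is a description of the sequence and no evidence of binding. Shared stretches that could confuse counting were few. Of the 31-base words in the GENCODE M21 transcripts, Reg3b and Reg3g shared 5, which is 0.446% of those of Reg3b and 0.231% of those of Reg3g, and no other pair of the 5 genes shared any.

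Library depth ran from 20.3 to 87.2 (in units of 1e6 estimated counts), and the lowest estimated count of any member in a library was 206 (Reg3a in Lgr5 AL replicate 3). Lgr5 mRNA stood at 9.88 to 31.1 TPM in Hopx sorts and 18.4 to 93.9 TPM in Lgr5 sorts. Hopx mRNA stood at 76.0 to 111 TPM in Hopx sorts and 138 to 238 TPM in Lgr5 sorts, so the transcript did not mark the reserve sort, whose name rests on the reporter. Differentiated cell transcripts were present throughout. Lyz1, the lysozyme of Paneth cells, stood at 8700 to 65357 TPM, Alpi, the alkaline phosphatase of enterocytes, at 161 to 985 TPM and Chga, a granule protein of enteroendocrine cells, at 199.96 to 1222 TPM. The Y-linked gene Eif2s3y reached no more than 0.125 TPM in isolation 3 and in the CR animal of isolation 4, and was at 8.91 TPM or more elsewhere, the AL animal of isolation 4 included. By this gene the CR and AL animals of isolation 4 differed in sex. Sex and diet cannot be told apart in that Hopx pair, and the part of sex in the diet differences was not tested. In these bulk samples fewer cells of a type and less RNA per cell cannot be told apart.

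Together the 5 genes made up a large share of the message pool. They summed to 11314, 28820 and 14498 TPM in Lgr5 CR, 11156, 7870 and 5404 TPM in Lgr5 AL, 13576 and 17662.5 TPM in Hopx CR, and 5111 and 10202 TPM in Hopx AL. That is from 0.525% of the TPM total in Hopx AL replicate 1 to 3.01% in Lgr5 CR replicate 2. Reg3b and Reg3g held 78.9% to 91.6% of the family sum in Lgr5 CR, 52.2% to 84.9% in Lgr5 AL, 67.5% and 89.5% in Hopx CR, and 45.7% and 58.1% in Hopx AL. By median TPM over the 10 libraries, the order was Reg3b (5323), Reg3g (3974), Reg4 (2249), Reg1 (557) and Reg3a (63.0). Reg3b and Reg3g overlapped over their ranges of 1071 to 13204.5 and 830 to 10766 TPM, as did Reg4 at 579 to 3720.5 TPM, while Reg3a at 23.0 to 124 TPM lay below every other member in every library. In Lgr5 CR replicate 2, Reg3b ranked 8th and Reg3g 10th among all genes by TPM.

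**Figure D1:**
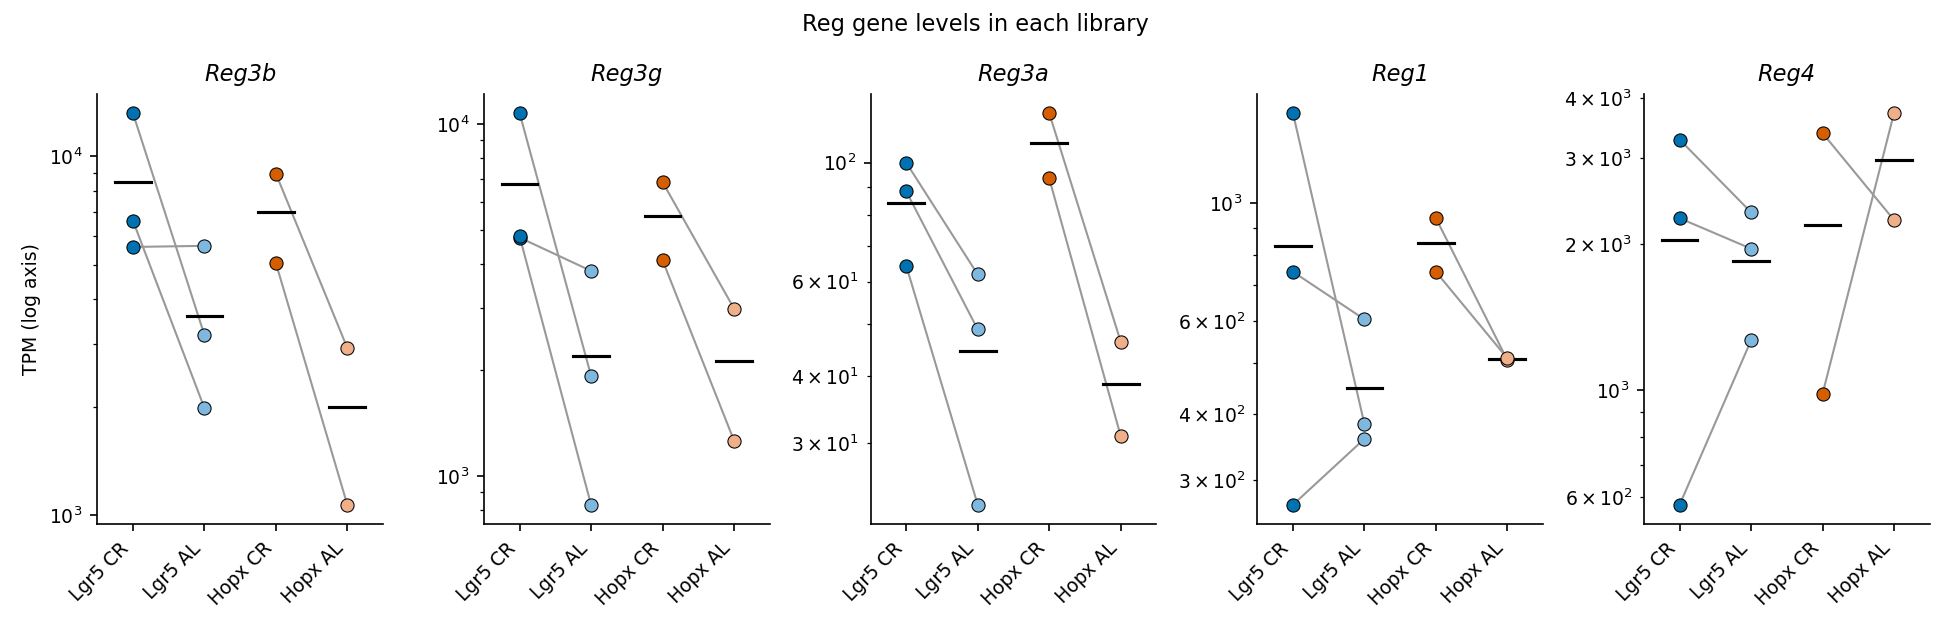
TPM of each gene (log axis) in every library, by group. Points are libraries, grey lines join the CR and AL animal of an isolation and black bars are group means; Reg3g in all 5 CR libraries (4113 TPM or more) lies above all 5 AL libraries (3834 TPM or less).

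The first question was how restriction changed the lectins in active stem cells. In Lgr5 CR the estimates of Reg3b, Reg3g, Reg3a and Reg1 were 2.02 to 3.28 times those in Lgr5 AL and that of Reg4 1.28 times, and no member passed edgeR's quasi-likelihood test after Benjamini-Hochberg adjustment over 15839 genes (0 of 5, where 0.0189% of all genes passed). At an unadjusted p under 0.05, 4 of 5 were higher, beside 5.57% of all genes, and DESeq2 also passed 0 of 5 after adjustment.

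Reg3g, the lectin against Gram-positive bacteria, had 4768, 10766 and 4809 TPM in Lgr5 CR, against 3834, 1932 and 830 TPM in Lgr5 AL (replicates 1 to 3). The groups did not overlap, as for 3.00% of all genes by TPM, and the largest fold difference between the animals of an isolation was in isolation 3. Its log2 fold change was 1.71 (SE 0.625, 95% interval 0.32 to 3.11, adjusted p = 0.412, edgeR), and with 1 Lgr5 library left out it ranged over 1.16 (without CR replicate 2) to 2.50 (without AL replicate 1). The AL library of isolation 3 stood apart in other ways. Of all libraries it had the lowest depth (20.3), the lowest sum of Paneth markers (67261 TPM) and the highest sum of 11 active stem cell markers (9517 TPM). The other Lgr5 libraries had 2805 to 5177 TPM of the latter. The part of this in the Reg3g difference was not tested.

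Reg3b, its neighbour in sequence and level, had 5596, 13204.5 and 6624 TPM in Lgr5 CR, against 5636, 3184 and 1993 TPM in Lgr5 AL. Here the groups overlapped, since Lgr5 AL replicate 1 was level with its CR partner. The log2 fold change was 1.35 (SE 0.546, 95% interval 0.13 to 2.57, adjusted p = 0.465, edgeR), with 0.83 without Lgr5 CR replicate 2 and 1.95 without Lgr5 AL replicate 1.

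Reg3a, the least abundant of the family, had 99.9, 88.4 and 64.2 TPM in Lgr5 CR, against 61.9, 48.9 and 23.0 TPM in Lgr5 AL. The CR libraries were above the AL libraries by TPM, by a narrow margin, but by CPM the lowest CR value (33.6) was just under the highest AL value (33.9). Its log2 fold change was 1.02 (SE 0.41, 95% interval 0.10 to 1.93, adjusted p = 0.465, edgeR), and 0.62 without Lgr5 AL replicate 3.

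Reg1 had 269.5, 1481 and 743 TPM in Lgr5 CR, against 359, 383 and 604 TPM in Lgr5 AL. The animal of isolation 2 was far above the others, and in isolation 1 the CR animal was the lower of its pair. The log2 fold change was 1.15 (SE 0.478, adjusted p = 0.483, edgeR) and 0.38 without Lgr5 CR replicate 2.

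Reg4, the enteroendocrine member, had 579, 3280.2 and 2259 TPM in Lgr5 CR, against 1265, 2323 and 1954 TPM in Lgr5 AL. The CR libraries held both the highest and the lowest value. The log2 fold change was 0.35 (SE 0.601, 95% interval -0.99 to 1.69, adjusted p = 0.888, edgeR), and it turned to -0.23 without Lgr5 CR replicate 2 and to -0.14 on the log2(TPM + 1) scale.

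The second question was the same comparison in reserve stem cells. In Hopx CR the 3 Reg3 genes were again estimated at 2.21 to 3.03 times Hopx AL, Reg1 at 1.35 times and Reg4 at 0.621 times. No member passed the adjusted test by edgeR or DESeq2 (0 of 5, beside 0.0126% of all genes by edgeR), and Reg3a and Reg3b had an unadjusted p under 0.05 as higher (2 of 5, beside 5.41% of all genes).

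Reg3b had 5049 and 8959 TPM in Hopx CR, against 1071 and 2927 TPM in Hopx AL (replicates 1 and 2). Its log2 fold change was 1.60 (SE 0.674, 95% interval 0.10 to 3.10, adjusted p = 0.565, edgeR), with values of 1.16 to 2.20 when each Hopx library was left out in turn. All Hopx CR libraries were above all Hopx AL libraries, which with 2 libraries a group was so for 35.6% of all genes by TPM.

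Reg3g had 4113 and 6856 TPM in Hopx CR, against 1264 and 2998 TPM in Hopx AL, again without overlap. The log2 fold change was 1.14 (SE 0.755, 95% interval -0.54 to 2.82, adjusted p = 0.694, edgeR). Reg3a had 93.4 and 124 TPM in Hopx CR, against 30.97 and 46.4 TPM in Hopx AL, and its log2 fold change was 1.22 (SE 0.502, adjusted p = 0.558, edgeR).

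Reg1 had 938 and 743 TPM in Hopx CR, against 506 and 509.7 TPM in Hopx AL, a log2 fold change of 0.43 (SE 0.579, 95% interval -0.86 to 1.72, adjusted p = 0.861, edgeR). Reg4 had 3383 and 981 TPM in Hopx CR, against 2239 and 3720.5 TPM in Hopx AL, so its animals went opposite ways in the 2 isolations. Its log2 fold change was -0.69 (SE 0.738, 95% interval -2.33 to 0.96, adjusted p = 0.817, edgeR), and it was -1.87 without Hopx CR replicate 1 and -0.04 without Hopx CR replicate 2.

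**Figure D2:**
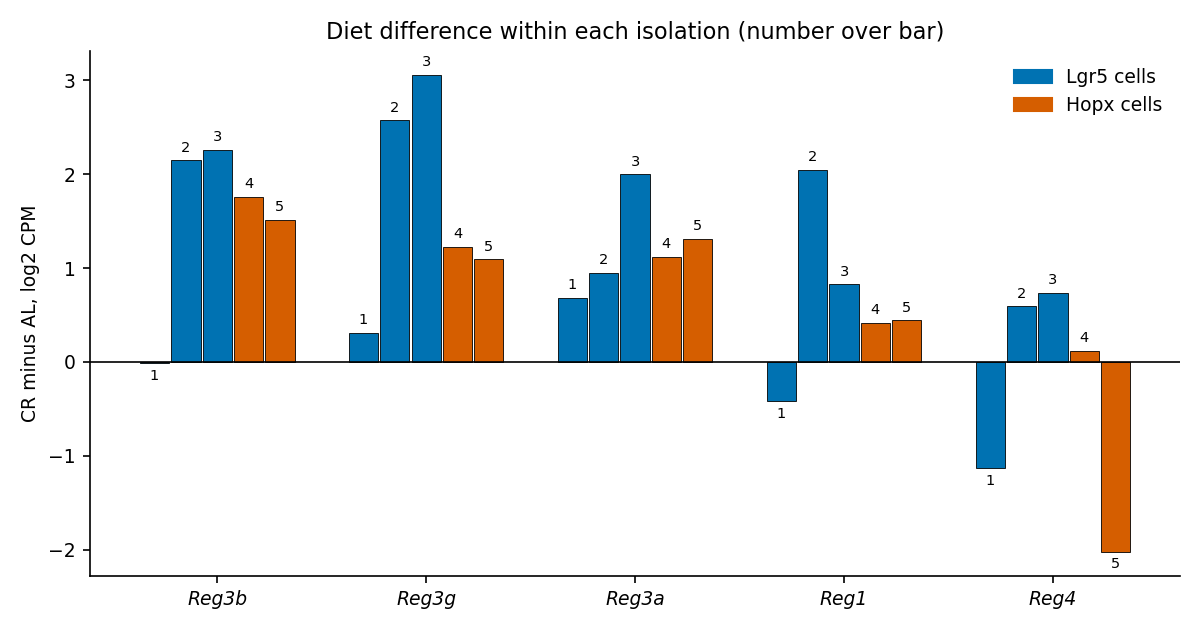
Difference in log2 CPM between the CR and the AL animal of each isolation (number at the bar; isolations 1 to 3 Lgr5 cells, 4 and 5 Hopx cells) for each gene. Reg3g and Reg3a are above 0 in all 5 isolations, Reg3b is at -0.02 in isolation 1 and at 1.51 or more in the others, and Reg4 has bars on both sides of 0.

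The isolations were then taken as pairs across both populations. In every one of the 5 isolations Reg3a was higher in the restricted animal, by 0.68, 0.95, 2.00, 1.12 and 1.31 log2 CPM in isolations 1 to 5, and Reg3g was too, by 0.31, 2.57, 3.06, 1.23 and 1.09. Such agreement in all 5 was found for 8.74% of all genes tested. Reg3b was higher in 4 of 5 isolations, with -0.02, 2.15, 2.26, 1.76 and 1.51 log2 CPM. Isolation 1 had the smallest difference for each of these genes.

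Reg1 was higher in 4 of 5 isolations, by 2.05 in isolation 2 and by 0.42 to 0.83 in isolations 3 to 5, and it was lower in isolation 1 (-0.42). Reg4 was higher in 3 isolations, by 0.12 to 0.74, and lower in isolations 1 (-1.13) and 5 (-2.02). By TPM, all 5 CR libraries were above all 5 AL libraries for Reg3g and Reg3a, as for 0.814% of all genes, and by CPM for Reg3g (2324 CPM or more, against 1959 or less), as for 1.61% of all genes.

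Averaged over the populations, the diet difference was 1.48 for Reg3b (SE 0.434, adjusted p = 0.2, edgeR), 1.43 for Reg3g (SE 0.492, adjusted p = 0.249), 1.12 for Reg3a (SE 0.325, adjusted p = 0.195), 0.79 for Reg1 (SE 0.376, adjusted p = 0.369) and -0.17 for Reg4 (SE 0.475, adjusted p = 0.9) on the log2 scale. The average of Reg1 was 0.40 without Lgr5 CR replicate 2. None of the 5 passed (0.00631% of all genes did), and the 3 Reg3 genes had an unadjusted p under 0.05 as higher, beside 8.35% of all genes. DESeq2 passed these 3 of the 5 in the same comparison, with adjusted p = 0.0143 for Reg3b, 0.0429 for Reg3g and 0.0323 for Reg3a, where it passed 2.45% of all genes as higher. With isolation as a block and 1 diet term for all pairs, a fit chosen after seeing the data, edgeR gave 1.56 for Reg3b (adjusted p = 0.0973), 1.65 for Reg3g (adjusted p = 0.129) and 1.21 for Reg3a (adjusted p = 0.057).

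The diet difference was not shown to depend on the population. The difference of the diet effects, Hopx minus Lgr5, was 0.25 for Reg3b (95% interval -1.64 to 2.14), -0.57 for Reg3g (-2.72 to 1.58), 0.21 for Reg3a (-1.22 to 1.64), -0.72 for Reg1 (-2.39 to 0.94) and -1.04 for Reg4 (-3.16 to 1.08). None of the 5 passed by edgeR or DESeq2 (0.00631% of all genes did by edgeR), and none had an unadjusted p under 0.05, beside 4.72% of all genes. These intervals leave room for differences of several fold in either direction.

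Populations were compared under each diet, where reporter line, sort and isolation cannot be told apart. In Hopx CR against Lgr5 CR, the log2 fold changes were 0.66 for Reg3a, 0.40 for Reg4, 0.30 for Reg1, 0.00 for Reg3b (95% interval -1.33 to 1.34) and -0.03 for Reg3g (-1.55 to 1.49). No member passed the adjusted test (0.0189% of all genes did) or had an unadjusted p under 0.05 (6.30% of all genes). In Hopx AL against Lgr5 AL, Reg4 averaged 2980 ± 1047 TPM in Hopx AL (SD, n = 2) and 1847 ± 537 TPM in Lgr5 AL (SD, n = 3), with a log2 fold change of 1.44 (SE 0.662, 95% interval -0.04 to 2.91, adjusted p = 0.293, edgeR). Reg1 differed by 1.03 (95% interval -0.13 to 2.19), Reg3g by 0.54, Reg3a by 0.45 and Reg3b by -0.25, and without Lgr5 AL replicate 3 Reg3g differed by 0.06 and Reg3a by 0.04. None of the 5 passed here (0.0189% of all genes did) or had an unadjusted p under 0.05 by edgeR (17.7% of all genes), and DESeq2 passed 0 of 5 in both comparisons.

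**Figure D3:**
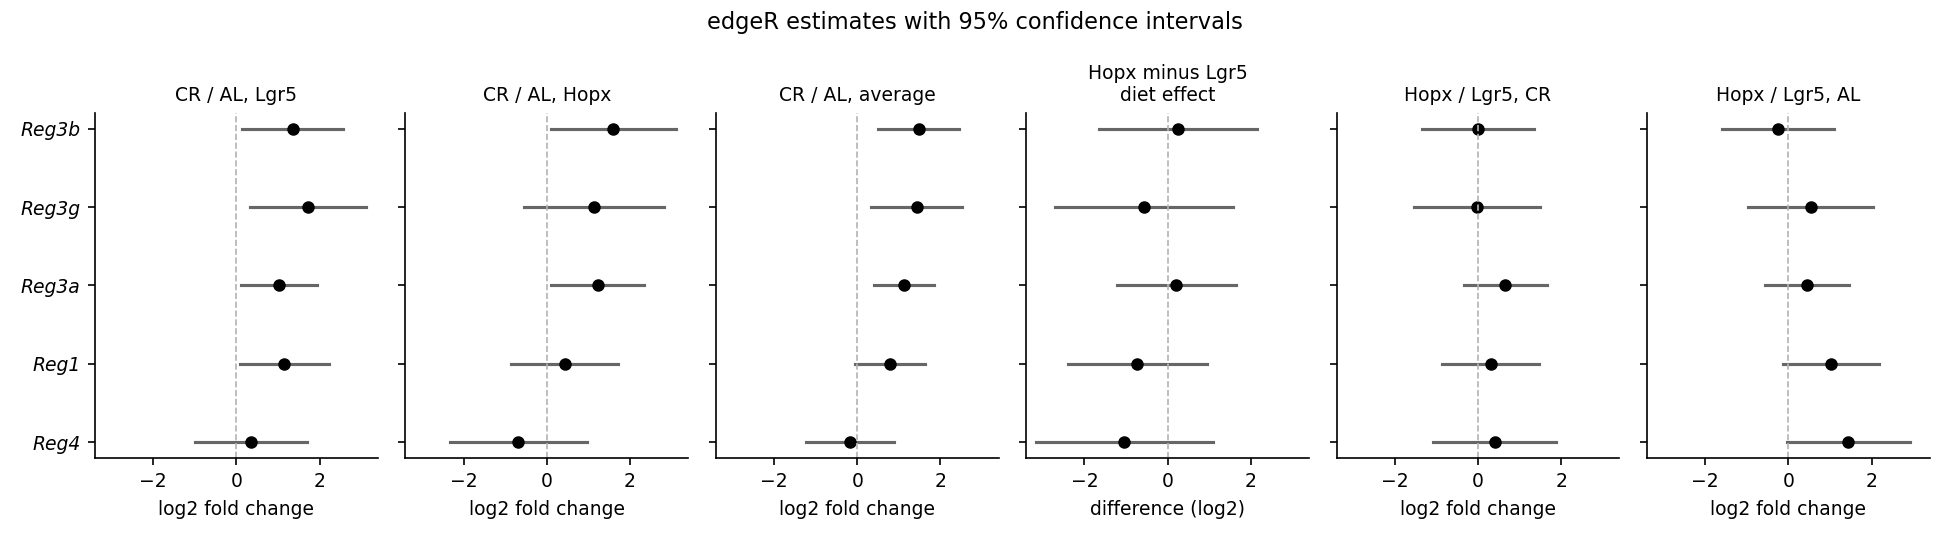
edgeR log2 fold changes (points) with 95% confidence intervals (lines) of each gene in the 6 comparisons; the fourth panel is the difference of the diet effects. In the average over populations the intervals of Reg3b, Reg3g and Reg3a lie above 0 before adjustment, and those of the population comparisons all cross 0.

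The family fell into blocks by how its members varied over libraries. Reg3b and Reg3g followed each other closely (r = 0.945 and rho = 0.903 in log2 CPM over 10 libraries, and r = 0.98 for deviations from the group means). Reg3a followed Reg3g (r = 0.916, rho = 0.891) and Reg3b (r = 0.835, rho = 0.794). Reg4 followed none of the 3, with r of -0.05 to 0.10, and Reg1 was nearest to Reg4 by r (r = 0.695, rho = 0.503) but to Reg3g by rho (r = 0.531, rho = 0.588). For deviations from the group means, Reg1 had r = 0.813 with Reg4, 0.288 with Reg3b, 0.221 with Reg3g and -0.166 with Reg3a. These correlations describe 10 libraries that share isolations, and no test was made of them.

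The balance of Reg3b and Reg3g, looked at after their values were seen, differed with diet in opposite directions in the populations. Reg3b over Reg3g, in TPM, was 1.17, 1.23 and 1.38 in Lgr5 CR, against 1.47, 1.65 and 2.40 in Lgr5 AL. In the reserve population it was 1.23 and 1.31 in Hopx CR, against 0.847 and 0.976 in Hopx AL. The ratio was thus lower in the CR animal of isolations 1 to 3 and higher in that of isolations 4 and 5, and it lay within 1.17 to 1.38 in all CR libraries.

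The remaining mouse family members were near the limit of detection. Reg2, a pancreatic member, had 0 to 4.04 estimated counts a library and was not tested. Reg3d, which lies between Reg3b and Reg3a, had 1.52, 0.539 and 1.14 TPM in Lgr5 CR, against 0, 0.189 and 0 TPM in Lgr5 AL, and 0.439 and 0.598 TPM in Hopx CR, against 0.0548 and 0.434 TPM in Hopx AL. The restricted animal had more of it in each of the 5 isolations, at no more than 41.7 estimated counts a library. By CPM such agreement was found for 8.74% of all genes tested. The averaged diet difference of Reg3d did not pass (adjusted p = 0.275, edgeR).

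Genes of the IL-22 and STAT3 pathway, which drives Reg3 transcription, were read beside the lectins. Il22 itself, a cytokine of lymphoid cells, was listed at 0 TPM in all but 1 library. Of 18 listed genes, all tested, 0 passed in either direction in each diet comparison by edgeR. In Lgr5 CR against AL 12 were higher and 6 lower (median 0.08, beside 0.02 over all genes), with an unadjusted p under 0.05 for 2 higher and 0 lower, beside 5.57% and 4.21% of all genes. In Hopx CR against AL 13 were higher and 5 lower (median 0.15, beside -0.02 over all genes), with 2 higher and 1 lower at that level, beside 5.41% and 3.11% of all genes.

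Socs3, the feedback inhibitor that STAT3 induces, had 41.1, 39.9 and 57.6 TPM in Lgr5 CR, against 11.003, 6.24 and 7.01 TPM in Lgr5 AL. In Hopx CR it had 17.3 and 29.5 TPM, against 8.18 and 6.74 TPM in Hopx AL, and its averaged difference was 1.99 (SE 0.274, adjusted p = 0.0597, edgeR). Il22ra1, the epithelial IL-22 receptor subunit, had 7.19, 6.11 and 7.20 TPM in Lgr5 CR, against 5.77, 3.06 and 4.86 TPM in Lgr5 AL. It had 4.40 and 5.52 TPM in Hopx CR, against 2.07 and 2.55 TPM in Hopx AL, an averaged difference of 0.79 (SE 0.22, adjusted p = 0.18, edgeR). Neither overlapped between diets within a population, which by TPM was so, with CR higher, for 3.00% of all genes in Lgr5 cells and 35.6% in Hopx cells.

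Microbe sensing genes had no common direction. Of 17 listed, 16 were tested and 0 passed in either direction, and in the average over populations 8 were higher and 8 lower (median -0.01). Traf6, an adaptor downstream of MyD88, stood at 0.52 (adjusted p = 0.227, edgeR), and Nod1, a sensor of peptidoglycan fragments, at -0.30 (adjusted p = 0.307). Of 16 other epithelial defence genes 12 were tested and 0 passed, with 7 higher and 5 lower (median 0.41, beside -0.00 over all genes). Pigr, which carries IgA to the lumen, stood at 0.41 (adjusted p = 0.278, edgeR), and Nos2, the inducible nitric oxide synthase, at 1.56 (adjusted p = 0.406). Nos2 had 7.56, 46.7 and 4.65 TPM in Lgr5 CR, against 10.4, 7.84 and 6.54 TPM in Lgr5 AL, and 1.299 and 21.6 TPM in Hopx CR, against 1.296 and 4.88 TPM in Hopx AL, so its estimate rests on isolations 2 and 5.

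Markers of differentiated cells moved with some of these values. The 19 enterocyte markers, all tested, summed to 20872 to 29809 TPM in Lgr5 CR, 9200 to 32200 TPM in Lgr5 AL, 17215 and 21115 TPM in Hopx CR, and 9717 and 9438 TPM in Hopx AL. All 19 were estimated higher under CR in both populations (medians 0.67 and 1.01, beside 0.02 and -0.02 over all genes). At an unadjusted p under 0.05, 6 were higher in Lgr5 cells and 5 in Hopx cells, beside 5.57% and 5.41% of all genes. In the average over populations 11 were, beside 8.35% of all genes. After adjustment 0 passed, and no enterocyte marker was at 0 in any library. Lgr5 AL replicate 1, the AL library with the highest Reg3b, was also the library with the highest enterocyte sum. Over the 10 libraries the log2 enterocyte sum and log2 TPM had r of 0.754 for Reg3b (rho = 0.733), 0.737 for Reg3g (rho = 0.661) and 0.747 for Reg3a (rho = 0.697), and without the 2 libraries farthest from the median sum r was 0.695, 0.697 and 0.646. The part of enterocyte transcripts in the Reg3 differences was not tested.

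Paneth cell markers, of which 13 of 15 had a row, went another way in Hopx cells. All 13 were estimated lower in Hopx CR (median -0.65), where the Reg3 genes were estimated higher, with 0 at an unadjusted p under 0.05. In Lgr5 CR 8 were higher and 5 lower (median 0.08). There 3 were higher and 0 lower at that level, beside 5.57% and 4.21% of all genes. Their sum was 126659 to 162090 TPM in Lgr5 CR, 67261 to 177355 TPM in Lgr5 AL, 223503 and 170151 TPM in Hopx CR, and 311116 and 206937 TPM in Hopx AL. The 18 immune cell markers summed to 111 to 255 TPM in Lgr5 CR, 96.7 to 489 TPM in Lgr5 AL, 70.2 and 134 TPM in Hopx CR, and 297 and 215 TPM in Hopx AL, with 1 to 3 of them at 0. Of the 16 immune markers tested, 13 were estimated lower under CR in each population and 0 passed. By sum, the CR library was the lower in isolations 1, 4 and 5. It was the higher in isolations 2 (111 against 96.7 TPM) and 3 (185 against 129 TPM), both of Lgr5 cells. The 14 exocrine pancreas markers summed to 13.3 to 27.8 TPM in every library, led by Cela1 (8.08 to 12.4 TPM) or Pnliprp1 (2.75 to 18.4 TPM). Cpa1, a defining pancreatic protease, was at 0 in all but 1 library, while Reg1, which the pancreas also makes, was at 269.5 TPM or more.

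Tuft cell markers were estimated lower where the Reg3 genes were estimated higher, in Lgr5 cells. All 12 were lower in Lgr5 CR (median -1.91), 11 of them at an unadjusted p under 0.05, beside 4.21% of all genes, and 0 passed after adjustment. In Hopx CR 3 were higher and 9 lower (median -0.14), with 0 at that level. They summed to 110.3, 123.2 and 80.3 TPM in Lgr5 CR, 369, 203 and 690.3 TPM in Lgr5 AL, 271 and 160.3 TPM in Hopx CR, and 237 and 131 TPM in Hopx AL, with at most 1 marker at 0. The log2 tuft sum had r of -0.668 with Reg3g (rho = -0.661), -0.488 with Reg3b (rho = -0.503) and -0.567 with Reg3a (rho = -0.467), and without the 2 libraries farthest from the median sum r was -0.418, -0.303 and -0.306. The 11 goblet cell markers summed to 4474 to 5992 TPM in Lgr5 CR, 4354 to 7839 TPM in Lgr5 AL, 9431 and 10855 TPM in Hopx CR, and 13189 and 9301 TPM in Hopx AL, with 0 past an unadjusted p of 0.05 in either population. The part of these cell types in the Reg differences was not tested.

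Enteroendocrine markers varied in part with Reg4. The 19 markers summed to 653, 3452 and 2798 TPM in Lgr5 CR, 1461, 2249 and 1808 TPM in Lgr5 AL, 7149 and 3988 TPM in Hopx CR, and 8595 and 8402 TPM in Hopx AL. Lgr5 CR replicate 1 was the lowest library for both Reg4 and these markers, and Hopx CR replicate 2 was the lower Hopx CR library for both. Other values broke the pattern. The marker sum of Hopx CR replicate 2 (3988 TPM) was above every Lgr5 library, but its Reg4 (981 TPM) was above only Lgr5 CR replicate 1. Hopx AL replicate 1 had the highest marker sum (8595 TPM), with Reg4 at 2239 TPM. Over the 10 libraries r was 0.735 (rho = 0.588), and 0.57 without the 2 libraries farthest from the median sum. With the Paneth sum Reg4 had r of 0.323 (rho = 0.564), and 0.667 without the 2 libraries farthest from that median sum. These trimmed values of r leave out different libraries for each sum, so 0.57 and 0.667 cannot be ranked. With the enterocyte sum Reg4 had r of -0.567 (rho = -0.503). All 19 enteroendocrine markers were estimated higher in Hopx AL than in Lgr5 AL (median 2.03, beside 0.04 over all genes), the comparison in which Reg4 had its largest estimate. This was not particular to them. All 13 Paneth markers were higher there too (median 1.67), and of the 11 goblet markers 9 were higher and 2 lower (median 1.07). Of the enterocyte markers 7 were higher and 12 lower, and of the tuft markers 4 were higher and 8 lower. In Hopx CR against AL all 19 enteroendocrine markers were estimated lower (median -0.91), 3 of them at an unadjusted p under 0.05 by edgeR, beside 3.11% of all genes. In Lgr5 CR against AL 11 were higher and 8 lower (median 0.38). There 1 was higher and 2 lower at that level, beside 5.57% and 4.21% of all genes. After adjustment 0 passed in either population. The part of enteroendocrine transcripts in the Reg4 values was not tested.

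**Figure D4:**
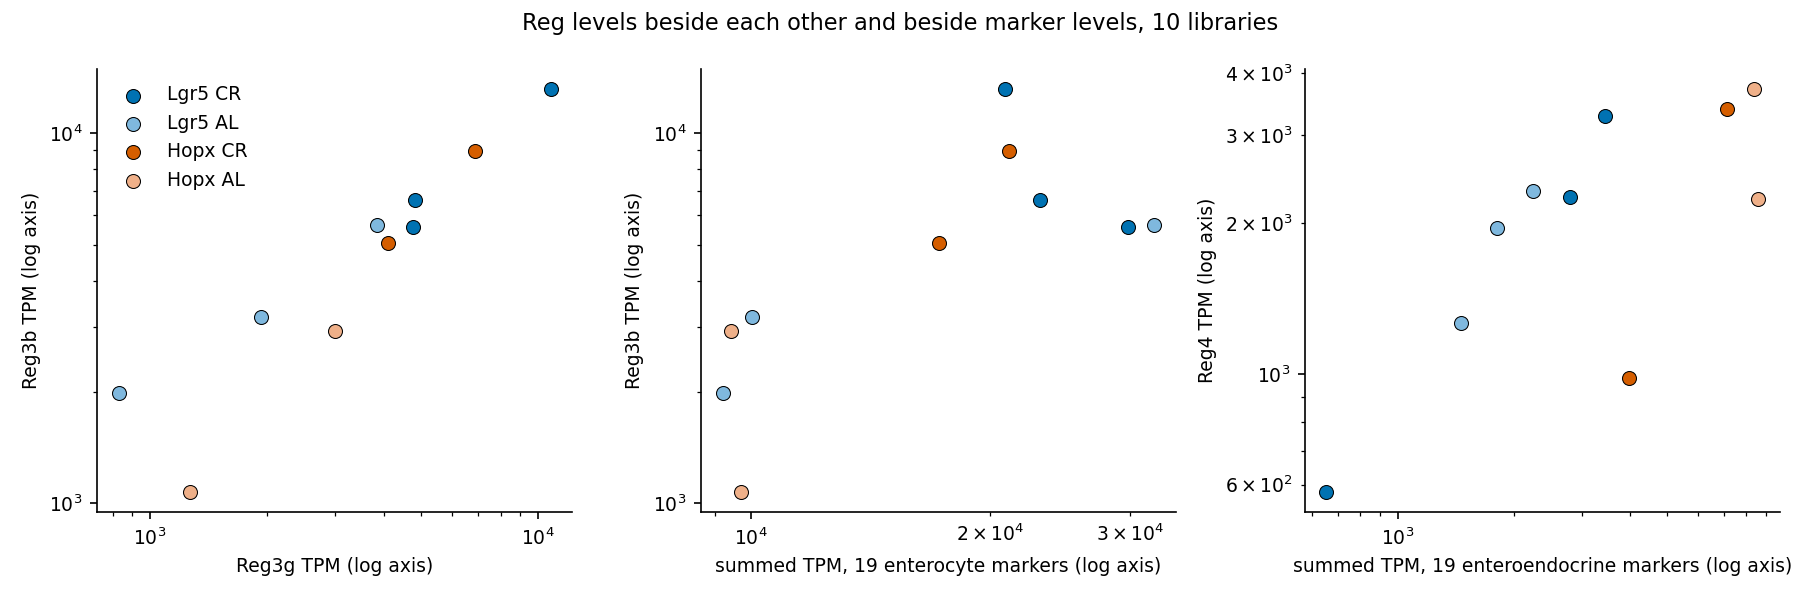
Reg3b against Reg3g TPM (left), Reg3b TPM against the summed TPM of 19 enterocyte markers (middle) and Reg4 TPM against the summed TPM of 19 enteroendocrine markers (right), log axes, 1 point a library. The left panel has r = 0.945 in log2 CPM, and in the middle panel the 1 AL library among the CR libraries is Lgr5 AL replicate 1.

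The genes with the most similar pattern over the 10 libraries, among 10011 genes with a mean of at least 5 CPM, differed between members. For Reg4 they were Ambp, a plasma protease inhibitor precursor (r = 0.984, rho = 0.952), Pla2g7, which inactivates platelet-activating factor (r = 0.981, rho = 0.988), and Resp18, a protein of endocrine secretory granules (r = 0.977, rho = 0.939). Without the 2 libraries farthest from the median of the member, r was 0.958 to 0.981 for the genes of Reg4, and lower for those of the others, at 0.777 to 0.859 for Reg3b, 0.753 to 0.852 for Reg3g, 0.80 to 0.86 for Reg3a and 0.724 to 0.917 for Reg1. For Reg3b they were Scamp5, a membrane protein of secretory vesicles (r = 0.943, rho = 0.964), Gchfr, a regulator of tetrahydrobiopterin synthesis (r = 0.921, rho = 0.818), and Slco2a1, a prostaglandin carrier (r = 0.898, rho = 0.83).

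For Reg3g the nearest were Dhrs1, a short-chain dehydrogenase (r = 0.94, rho = 0.915), Aldh3b1, an aldehyde dehydrogenase (r = 0.928, rho = 0.745), and Fam20a (r = 0.92, rho = 0.879). Fam20a, a pseudokinase of the secretory pathway, was also among the nearest of Reg3a (r = 0.953, rho = 0.83), after Cd302, itself a C-type lectin receptor (r = 0.959, rho = 0.891), and before Dtd2 (r = 0.951, rho = 0.842). For Reg1 they were Ugt1a9 (r = 0.91, rho = 0.927), whose locus shares exons with other Ugt1a genes, Pirt (r = 0.893, rho = 0.964) and Zdhhc16 (r = 0.868, rho = 0.855). These are the top of a ranking of many genes over few libraries and are given as a description.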

How the data were processed

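Levels are from the authors' deposited table of TPM (transcripts per 1e6, scaled for length) and tests from the deposited table of estimated counts, both per gene symbol. Per the submitters' processing notes, kallisto and edgeR were used, with no version, and the build named is GRCh38, a human build, while the symbols are mouse. No source used here names the annotation or filters. Per the labels' protocols, cDNA was amplified with SMART-Seq v4 and tagmented with Nextera XT, without molecular identifiers or strand.

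Estimated counts were rounded and filtered with filterByExpr (minimum count 10), which kept 15839 of 30295 rows and all 5 members. TMM-scaled libraries were fitted with a mean for each of 4 groups by edgeR 4.0.16 quasi-likelihood (R 4.3.3). Two-sided p-values were adjusted by Benjamini-Hochberg over all genes tested, at 0.05, and the standard error is the log2 fold change over the square root of F. CPM are counts per 1e6 after TMM, and differences within isolations use a prior count of 2. Alternatives used DESeq2 1.42.0 and limma 3.58.1. Upstream sequences were aligned with Biopython 1.88, end gaps free. Samples are separate animals. Isolation numbers in the labels pair CR with AL animals, and the deviations of paired libraries from their group means correlated at 0.0195 to 0.165.

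The members, gene lists and tests were chosen with earlier results of these data known. Named genes are the members, up to 3 genes a list with the smallest p and at least 5 CPM in the higher group, and the 3 genes most correlated with each member. Markers named as a check of the sorts (Lgr5, Hopx, Lyz1, Alpi, Chga, Cela1, Cpa1, Il22, Eif2s3y) were chosen beside that rule, after values were seen.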

Additional observations from a re-analysis of the deposited data

Results flagged for a closer look

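The ratio of Reg3b to Reg3g had a diet difference of opposite sign in the populations. In log2 units, CR minus AL was 0.535 and 0.42 in the isolations of Hopx cells and -0.325, -0.426 and -0.801 in those of Lgr5 cells, so that the Hopx mean (0.478) exceeded the Lgr5 mean (-0.517) by 0.995. An exact two-sided permutation of the isolations between populations (n = 2 and 3) gave p = 0.1, the smallest this design allows, so the difference could not pass. The ratio was picked after its values were seen. Reg3b and Reg3g as single genes did not pass the test of the difference of the diet effects (0.25 and -0.57).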

How the results depend on the processing

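The diet estimates of Reg3a, Reg3b and Reg3g were positive in Lgr5 cells, in Hopx cells and on average under every alternative run, with averaged values of 0.928 to 1.32, 1.22 to 1.78 and 1.15 to 1.82. DESeq2 passed 3 members in the averaged comparison, against 0 by edgeR, and the cause was not tested. With isolation as a replicate block no member passed (averages of 1.21 for Reg3a, adjusted p = 0.1, 1.57 for Reg3b, adjusted p = 0.155, and 1.59 for Reg3g, adjusted p = 0.177, edgeR), and the block changed no call. No blocked fit was possible for Hopx against Lgr5, since each isolation held 1 population.

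Of the alternatives for single members, 390 kept direction and side of the threshold, 3 passed it and 32 changed sign, each on an estimate whose 95% interval spans 0, and the cause was not tested. On log2(TPM + 1), with or without a filter, and on log2(TPM + 0.1), the difference of the diet effects of Reg1 was 0.105, Hopx against Lgr5 was -0.118 for Reg3a under AL and -0.229 for Reg3b under CR, and the Lgr5 diet difference of Reg4 was -0.139 (-0.14 with 0.1). On this scale the median of all genes shifted by -0.15 (Lgr5 diet), 0.26 (Hopx diet), 0.40 (difference of the diet effects), -0.26 (Hopx against Lgr5, CR) and -0.65 (AL). Reg3b under CR was -0.00915 by DESeq2 and with median-of-ratios size factors.

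With 1 library left out, the difference of the diet effects ran over -1.12 to 0.0519 for Reg1, -0.191 to 0.614 for Reg3a and -0.351 to 0.848 for Reg3b. Hopx against Lgr5 under CR ran over -0.133 to 1.08 for Reg1, -0.435 to 0.523 for Reg3b, -0.411 to 0.52 for Reg3g and -0.789 to 1.05 for Reg4, and under AL over -0.842 to 0.355 for Reg3b, 0.0641 to 1.32 for Reg3g and 0.0352 to 0.85 for Reg3a. Diet in Lgr5 cells ran over 0.621 to 1.42 for Reg3a and 0.83 to 1.95 for Reg3b, and in Hopx cells over 0.762 to 1.61 for Reg3g. Reg4 ran over -0.23 to 0.768 for diet in Lgr5 cells and -0.76 to 0.158 on average.

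Counts over all genes depended on the tool. edgeR and DESeq2 called 3 and 365 genes for diet in Lgr5 cells, 2 and 140 in Hopx cells, 1 and 648 on average, 1 and 35 for the difference of the diet effects, 3 and 151 for Hopx against Lgr5 under CR, and 3 and 1135 under AL, where limma called 3847. Without Lgr5 AL replicate 1 edgeR called 109 genes for diet in Lgr5 cells and 348 on average. Without the low-count filter it called 83 and 117.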
